A study of Mus musculus with 15 samples.

Results

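The 36 genes described here are interferon-stimulated genes, followed by the number of RNA-sequencing reads counted on each in lymphoma cells of mice. They were taken by symbol from the 37583 gene rows of the count files, and all 36 had a row and enough reads to be tested, among 13349 genes that did. The study set tumours transduced with an empty vector (EV, 4 libraries) beside tumours that received a short hairpin RNA targeting Kmt2d (sh-Kmt2d, 5 libraries), Kmt2d being a histone H3 lysine 4 methyltransferase. Cells were taken straight from the tumours, were not cultured, and were enriched with magnetic beads for B220, a surface marker of B cells that plasmacytoid dendritic cells also carry. All libraries share the B220 enrichment and the vector transduction. The sources used here do not give the mouse strain, age, lymphoma driver or hairpin sequence, nor do they say whether the libraries came from separate animals, so the p-values measure the spread between these samples only.

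Interferons are secreted proteins that warn cells of infection. Type I and III interferons act through receptor-bound kinases on the complex ISGF3, to which Irf9 belongs, and that complex binds the interferon-stimulated response element in the promoters of its targets. The targets sense foreign nucleic acid, block viral translation and assembly, and feed back on the pathway. In B cells some of them are on at a low level without infection.

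The core of the response element, searched on both strands as GAAA, any 2 bases and GAAA again, lay in the promoter window (250 bases before to 50 after a start site, from RefSeq, build GRCm38.p6) of 12 of the 27 members with a window, 44.4%, against 3.99% of the 27025 genes of that table. These 12 were Ddx58, Ifih1, Ifit1, Ifit3, Oas1a, Oas3, Eif2ak2, Gbp2, Gbp3, Isg15, Rsad2 and Bst2. Among 69 other interferon pathway genes with a window, 21 held it, 30.4%. A gamma-activated sequence core, TTCNNNGAA on both strands, lay in 5 of the 27 members, 18.5%, against 9.55% of all genes. A match is a run of letters and not a measured binding site. The following stretches are shown because they belong to members that the results turn on, are written in the direction of transcription, and have the matches in capitals, overlapping matches running together.
Isg15, chr4:156200861-156200910, minus strand: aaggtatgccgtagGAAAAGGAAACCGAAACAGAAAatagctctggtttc
Ifit1, chr19:34640774-34640823, plus strand: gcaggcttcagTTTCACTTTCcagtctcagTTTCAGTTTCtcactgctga
Oas1a, chr5:120907523-120907552, minus strand: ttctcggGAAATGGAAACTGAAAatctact
Gbp2, chr3:142620584-142620633, plus strand: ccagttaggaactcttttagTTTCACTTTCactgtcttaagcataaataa
Bst2, chr8:71537570-71537619, minus strand: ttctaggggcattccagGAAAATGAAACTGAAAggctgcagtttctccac
Rsad2, chr12:26456543-26456592, minus strand: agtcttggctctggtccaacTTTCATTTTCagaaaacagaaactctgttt
Ifih1, chr2:62646206-62646235, minus strand: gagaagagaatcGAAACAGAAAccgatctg
Isg15 holds 3 overlapping matches, while Oas1a and Bst2 hold 2 overlapping matches each and Ifit1 holds 2 apart. Gbp2, Rsad2 and Ifih1 hold 1 each. Ifit1, Gbp2 and Rsad2 carry the reverse complement.

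Counts on genes ran from 5925745 (sh-Kmt2d 5) to 29284830 (sh-Kmt2d 1) per library. Levels are given as CPM, a gene's count relative to the size of its library, scaled by edgeR's trimmed mean of M-values (TMM). The TMM factor was 0.536 in sh-Kmt2d 5, against 0.998 to 1.12 in the other libraries. Every CPM of sh-Kmt2d 5 is therefore raised, compared with scaling by total counts. Kmt2d was at 498.3, 252.1, 491.8 and 94.4 CPM in EV 1 to 4 and at 57.4, 46.8, 203.9, 18.9 and 9.78 CPM in sh-Kmt2d 1 to 5, so sh-Kmt2d 3 lay above EV 4 (log2 fold change -2.31 ± 0.84, SE; edgeR adjusted p = 0.167). The libraries also ran along a gradient, followed here by a length index. That index, the median log2 CPM of 20 genes with long transcripts minus that of 20 with short ones, was 3.03, 2.55, 3.39 and 1.15 in EV, against 0.32, 0.09, 1.93, -1.91 and -5.27 in sh-Kmt2d. The short ones all encode mitochondrial proteins, and the long ones include chromatin genes such as Kmt2a and Kmt2c. Transcript length therefore cannot be told apart from the function of these genes in the index. The groups overlapped in this index only through EV 4 and sh-Kmt2d 3, so its part in a difference between groups cannot be told apart from the vector in most libraries. Across the libraries Kmt2d itself fell in nearly the same order as the index. Its lower level in sh-Kmt2d therefore cannot be told apart from that gradient. The numbers in the sample titles (78 and 87 in EV, 103 and 110 in sh-Kmt2d) are nested in the groups as well, and sh-Kmt2d 4 and 5 are the libraries of number 110. In bulk samples fewer cells of a type and less RNA per cell cannot be told apart. The 8 B cell markers summed to between 9054 and 10520 CPM in EV and between 10110 and 34130 CPM in sh-Kmt2d, with none at 0, which fits the label of the cells.

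None of the 36 members passed the test between groups, in either direction (edgeR quasi-likelihood test, Benjamini-Hochberg adjusted p from 0.167 to 0.989), which does not show that their levels were the same in both. Of all tested genes 0.0% passed as higher and 0.0% as lower. Without adjustment 2 members, Bst2 and Ifi35, were higher at a p under 0.05 and 3, Ifih1, Herc6 and Rsad2, were lower, while 17.3% of all tested genes were higher and 11.1% lower by that measure. Taken as shares, 2 and 3 of 36 lie below those backgrounds. No member had all sh-Kmt2d libraries above all EV libraries, against 5.72% of genes, and Ifih1 and Herc6 had all of them below, against 5.12%. DESeq2 called no member (smallest adjusted p = 0.0521), 1.55% of genes higher and 2.95% lower, and at an unadjusted p under 0.05 it placed 3 members higher and 4 lower, beside 20.2% and 15.1% of the genes that both tools tested. Fold changes of the 36 ran from -1.74 to 1.22 on the log2 scale, 14 above 0 and 22 below, with a median of -0.21 beside -0.04 for all tested genes. The 2 members below all EV libraries are a share close to that background.

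**Figure D1:**
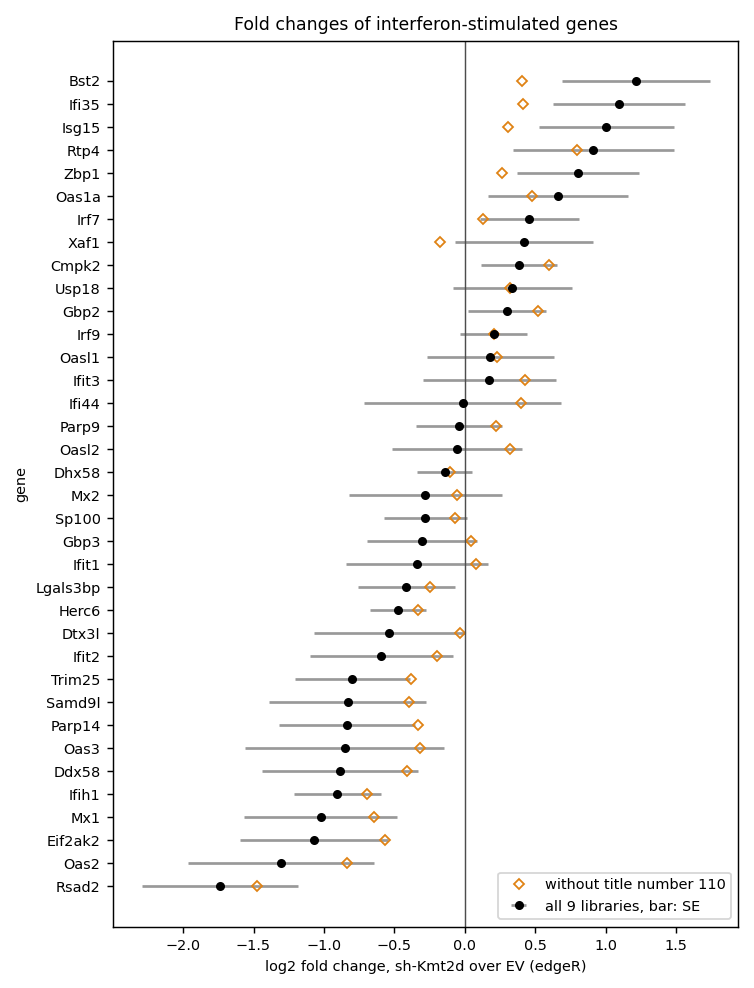
The x axis gives each of the 36 genes' log2 fold change from edgeR, above 0 where sh-Kmt2d is higher than EV; filled points are the fit of all 9 libraries with the standard error as a bar, and open diamonds leave out the libraries of title number 110. Values run from -1.74 (Rsad2) to 1.22 (Bst2), and without title number 110 the values of Bst2, Ifi35, Isg15 and Zbp1 lie closer to 0.

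Both transcription factors had overlapping groups. Irf7, which amplifies interferon production, was at 64.0, 48.1, 56.1 and 51.3 CPM in EV and at 53.6, 78.4, 46.0, 55.5 and 144.1 CPM in sh-Kmt2d. Irf9, the DNA-binding subunit of ISGF3, was at 117.0, 157.5, 147.5 and 113.8 CPM in EV and at 144.9, 197.5, 117.6, 153.5 and 158.0 CPM in sh-Kmt2d. On this TMM scale Irf7 was highest in sh-Kmt2d 5 and Irf9 in sh-Kmt2d 2, and the remaining libraries of each gene mingled. By total counts Irf7 was highest in sh-Kmt2d 2. The log2 fold change was 0.46 ± 0.35 (SE) for Irf7, turning to -0.29 with the index as a term in the model, and 0.20 ± 0.24 (SE) for Irf9, or -0.001 with total counts in place of TMM.

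The 4 sensors of nucleic acid divided. Ifih1 (MDA5), a helicase that senses long double-stranded RNA, was at 8.43, 5.76, 6.36 and 6.78 CPM in EV and at 4.05, 5.10, 3.35, 3.61 and 1.58 CPM in sh-Kmt2d. All sh-Kmt2d libraries were below all EV libraries, by a gap from 5.10 to 5.76 CPM at the nearest, and the log2 fold change was -0.91 ± 0.31 (SE; edgeR adjusted p = 0.167; DESeq2 adjusted p = 0.0521). Given the index as a term it was -0.50. Ddx58 (RIG-I), which senses viral RNA ends, was at 80.5, 111.1, 105.0 and 52.2 CPM in EV and at 59.7, 81.0, 54.4, 33.1 and 6.62 CPM in sh-Kmt2d. EV 4 lay among the sh-Kmt2d libraries, and the log2 fold change of -0.89 ± 0.56 (SE) became 0.46 with the index as a term. Zbp1, a sensor of Z-form nucleic acid that can start necroptosis, was at 56.9, 53.6, 53.4 and 58.8 CPM in EV and at 63.9, 85.8, 48.8, 68.9 and 219.8 CPM in sh-Kmt2d. Its EV libraries were close together, 4 of 5 sh-Kmt2d libraries were above them, and sh-Kmt2d 3 was below them all. The log2 fold change of 0.80 ± 0.43 (SE; edgeR adjusted p = 0.219) was 0.26 without title number 110 and -0.31 with the index as a term. Dhx58 (LGP2), which tunes the other RNA sensors, ranged from 25.8 to 36.9 CPM in EV and from 25.4 to 35.3 CPM in sh-Kmt2d, nearly the same span.

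The 9 RNA-binding effectors had fold changes from -1.30 to 0.66 on the log2 scale, 3 above 0 and 6 below. Oas2, one of the enzymes that make oligoadenylates on meeting double-stranded RNA, was at 9.83, 15.98, 18.4 and 3.48 CPM in EV and at 4.05, 12.8, 2.85, 1.84 and 1.89 CPM in sh-Kmt2d. EV 4 lay among the low sh-Kmt2d libraries and sh-Kmt2d 2 among the high EV libraries, and the log2 fold change was -1.30 ± 0.66 (SE; edgeR adjusted p = 0.202). With the index as a term the value was -0.13. Eif2ak2 (PKR), a kinase that stops translation when it meets double-stranded RNA, was at 36.02, 28.6, 35.0 and 20.04 CPM in EV and at 17.5, 19.5, 23.2, 7.55 and 2.21 CPM in sh-Kmt2d. EV 4 and sh-Kmt2d 3 crossed, and the log2 fold change of -1.07 ± 0.53 (SE; edgeR adjusted p = 0.192) became 0.22 with the index as a term. Oas1a, of the same enzyme family as Oas2, was at 3.37, 6.08, 5.30 and 3.26 CPM in EV and at 3.83, 12.1, 2.72, 5.17 and 12.6 CPM in sh-Kmt2d. It was high in sh-Kmt2d 2 and 5 and lowest in sh-Kmt2d 3, though by total counts sh-Kmt2d 5 lay close to EV 2. The log2 fold change of Oas1a was 0.66 ± 0.50 (SE), or -0.02 with the index as a term. Ifit1, Ifit2 and Ifit3, which bind viral RNA, and the other Oas family members (Oas3, Oasl1, Oasl2) had overlapping groups. Reads that align to more than 1 place were not counted on genes, so Oas1a and Ifit3, which have near-identical copies, are undercounted and their values are uncertain. Such alignments made up 36.48% to 47.91% per library in EV and 44.08% to 73.68% in sh-Kmt2d, most in sh-Kmt2d 5. The undercount may therefore differ between the groups.

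Among the 4 large GTPases, Mx1, a dynamin-like protein that traps viral capsids, was at 6.88, 13.1, 13.1 and 3.19 CPM in EV and at 4.66, 9.59, 2.85, 2.18 and 2.52 CPM in sh-Kmt2d. Its pattern was that of Oas2, low in EV 4 and high in sh-Kmt2d 2 (log2 fold change -1.02 ± 0.55, SE; edgeR adjusted p = 0.217). With the index as a term the value was -0.22. Some markers of plasmacytoid dendritic cells were also low in EV 4. Siglech was at 14.8, 12.7, 20.3 and 0.85 CPM and Ccr9 at 4.49, 5.50, 6.10 and 0.35 CPM in EV 1 to 4. Klk1, Cox6a2 and Cd209d were likewise lowest in EV 4 among the EV libraries. Pacsin1 went the other way, at 55.7, 39.5, 39.1 and 61.5 CPM. The part of such cells in the Mx1 and Oas2 values was not tested. Gbp2, a guanylate-binding protein that attacks vacuoles of pathogens, was at 35.2, 37.6, 35.1 and 37.8 CPM in EV and at 50, 73.0, 32.3, 38.2 and 30.3 CPM in sh-Kmt2d. The EV libraries spanned under 3 CPM while the sh-Kmt2d libraries lay on both sides of them (log2 fold change 0.30 ± 0.28, SE). Gbp3, of the same family, was at 47.9, 61.6, 52.5 and 52.1 CPM in EV and at 55.2, 71.2, 37.3, 39.2 and 13.6 CPM in sh-Kmt2d. Its log2 fold change of -0.30 ± 0.39 (SE) was 0.04 without title number 110 and 0.38 with the index as a term. Mx2, the paralogue of Mx1, ranged from 1.03 to 4.72 CPM in EV and from 1.27 to 5.29 CPM in sh-Kmt2d.

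The 7 members of the ubiquitin, ISG15 and ADP-ribose system differed in direction. Herc6, the ligase that attaches ISG15 in the mouse, was at 37.6, 32.5, 45.3 and 36.9 CPM in EV and at 26.7, 31.5, 32.0, 22.9 and 23.7 CPM in sh-Kmt2d. The groups did not overlap, though sh-Kmt2d 3 and EV 2 nearly met, and the log2 fold change was -0.48 ± 0.20 (SE; edgeR adjusted p = 0.168). With the index as a term the value was -0.25. Isg15, the ubiquitin-like modifier itself, was at 7.23, 10.0, 6.05 and 11.1 CPM in EV and at 9.92, 15.1, 6.64, 18.3 and 37.8 CPM in sh-Kmt2d. It was above all EV libraries in sh-Kmt2d 2, 4 and 5 and within their range in sh-Kmt2d 1 and 3, with a log2 fold change of 1.003 ± 0.48 (SE; edgeR adjusted p = 0.188). Without title number 110 the value was 0.31, and -0.34 once the index was a term. Trim25, a ubiquitin ligase that acts on Ddx58, was at 126.4, 129.8, 154.5 and 84.6 CPM in EV and at 85.9, 92.0, 105.0, 47.4 and 24.6 CPM in sh-Kmt2d. EV 4 lay below sh-Kmt2d 1 to 3, and the log2 fold change of -0.80 ± 0.41 (SE) became 0.16 with the index as a term. Usp18, which removes ISG15 and restrains the receptor, Dtx3l and Parp9, which work as a complex, and Parp14, an ADP-ribosyltransferase, had overlapping groups with log2 fold changes from -0.84 to 0.34.

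The 10 other effectors held the extremes. Rsad2 (viperin), an enzyme that makes a chain-terminating nucleotide, was at 4.14, 2.78, 2.25 and 12.3 CPM in EV and at 1.28, 2.72, 1.84, 1.02 and 0.95 CPM in sh-Kmt2d. It was highest in EV 4, and of the sh-Kmt2d libraries only sh-Kmt2d 2 reached the EV range (log2 fold change -1.74 ± 0.56, SE; edgeR adjusted p = 0.167; DESeq2 adjusted p = 0.053). The Rsad2 values in sh-Kmt2d 4 and 5 rest on 15 and 3 counts. EV 4 also had the highest sum of neutrophil markers, 202.3 CPM against 2.47 to 49.2 CPM elsewhere, and the part of such cells in the Rsad2 value was not tested. Bst2 (tetherin), which holds budding virus at the membrane and marks plasmacytoid dendritic cells, was at 32.9, 35.8, 38.2 and 29.3 CPM in EV and at 44.4, 58.0, 31.4, 57.6 and 205.6 CPM in sh-Kmt2d. Ifi35, an interferon-induced leucine zipper protein, was at 37.4, 52.5, 42.8 and 41.8 CPM in EV and at 55.0, 71.6, 45.9, 71.7 and 222.9 CPM in sh-Kmt2d. For both, 4 of 5 sh-Kmt2d libraries were above all EV libraries and sh-Kmt2d 3 was within their range. The log2 fold change was 1.22 ± 0.53 (SE; edgeR adjusted p = 0.172) for Bst2, 0.41 without title number 110 and -0.27 with the index as a term. For Ifi35 it was 1.09 ± 0.47 (SE; edgeR adjusted p = 0.170), 0.41 without title number 110 and -0.17 with the index as a term. Markers of plasmacytoid dendritic cells summed to between 61.6 and 81.9 CPM in EV and between 44.8 and 71.0 CPM in sh-Kmt2d, with 0 of 6 markers at 0 in all libraries. Most of that sum was Pacsin1, with a log2 fold change of -0.12. Siglech averaged 12.2 CPM in EV and 3.18 CPM in sh-Kmt2d (log2 fold change -1.91 ± 0.68, SE; edgeR adjusted p = 0.167), and Ccr9 had -1.37 ± 0.64 (SE). Cd209d and Klk1 had -1.03 and -0.21, while Cox6a2 went the other way, at 0.50. The part of such cells in the Bst2 value was not tested. Cmpk2, Samd9l, Xaf1, Ifi44, Rtp4, Lgals3bp and Sp100 had overlapping groups, with log2 fold changes from -0.83 to 0.91. Ifi44 was the least covered member, between 0.14 and 1.62 CPM.

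**Figure D2:**
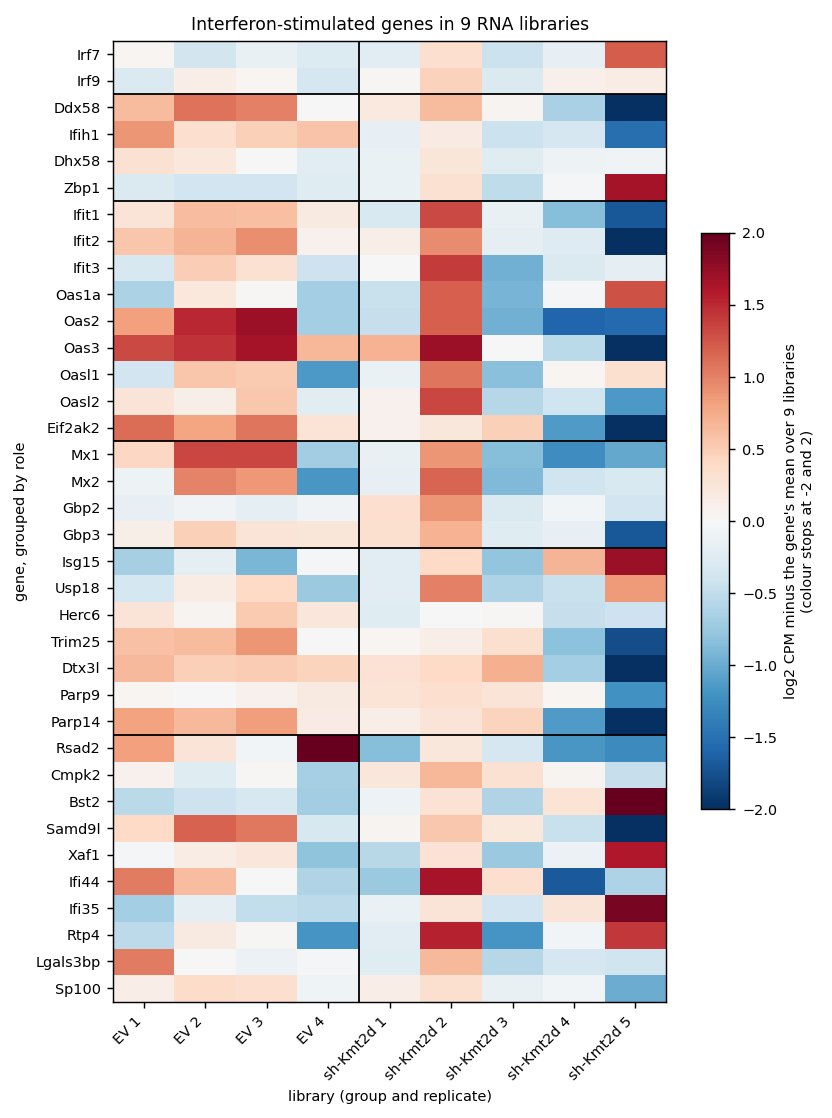
Each row is 1 of the 36 genes, grouped by role, and each column is 1 library; colour is log2 CPM minus the gene's mean over the 9 libraries, stopping at -2 and 2. The column of sh-Kmt2d 2 is above the mean for 36 of 36 genes. In sh-Kmt2d 5, 7 of the 36 genes have their highest value and 16 their lowest. Of all tested genes 37.0% had their highest value in that library and 45.3% their lowest.

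The direction of a member's fold change followed its relation to the length index. That index averaged 2.53 in EV and -0.97 in sh-Kmt2d, and both measures come from the same 9 libraries. A strong correlation with the index therefore largely sets the direction of the fold change in advance. For 18 members the Pearson correlation of log2 CPM with the index over the 9 libraries was above 0.5, and all 18 had a negative fold change, with a median of -0.82. They include Ddx58, Eif2ak2, Trim25, Parp14 and Samd9l. For 8 members, Irf7, Zbp1, Oas1a, Isg15, Bst2, Xaf1, Ifi35 and Rtp4, it was below -0.5, and all 8 had a positive fold change, with a median of 0.86. The 10 between had 6 positive and 4 negative values. With the index as a term these medians were 0.33, -0.28 and 0.16. Over all tested genes 44.8% were above 0.5 and 38.1% below -0.5. The fold change and the correlation with the index were themselves related with r = -0.87 across the 36 members and r = -0.82 across all tested genes, a description over genes that share the same 9 libraries. These divisions of the members were chosen after their values were seen.

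**Figure D3:**
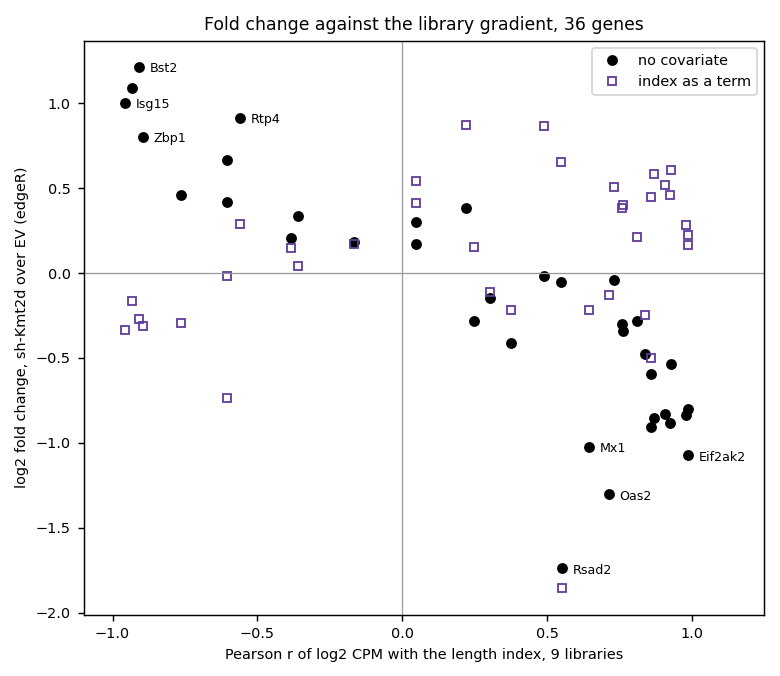
Each gene's log2 fold change, sh-Kmt2d over EV (y axis), against the Pearson correlation of its log2 CPM with the length index over 9 libraries (x axis), without a covariate (filled circles) and with the index as a term (open squares). Filled circles run from upper left to lower right (r = -0.87 over 36 genes), and the squares do not keep that order.

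Averaged over the 36 members, log2 CPM was 4.42, 4.59, 4.59 and 4.03 in EV 1 to 4 and 4.13, 4.91, 3.90, 3.81 and 3.49 in sh-Kmt2d 1 to 5. The highest library was sh-Kmt2d 2 and the lowest was sh-Kmt2d 5, so both ends lay in the same group. By the median over members sh-Kmt2d 2 was again highest at 4.75, but EV 4 was lowest at 3.97, below sh-Kmt2d 5 at 4.02. The mean of the 4 EV libraries was 4.41 ± 0.26 (SD, n = 4), the mean of the 5 sh-Kmt2d libraries 4.05 ± 0.53 (SD, n = 5), a difference of -0.36 that is smaller than the spread within sh-Kmt2d. Without sh-Kmt2d 2 the difference was -0.57 and without sh-Kmt2d 5 it was -0.22. Taking a straight line on the index out of each gene left mean residuals of -0.06, 0.17, 0.07 and -0.24 in EV, and of -0.05, 0.75, -0.45, -0.12 and -0.07 in sh-Kmt2d. On that scale sh-Kmt2d 2 was again highest, sh-Kmt2d 3 was lowest, and the group difference was 0.03. The line on the index for levels was added after the data were seen.

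**Figure D4:**
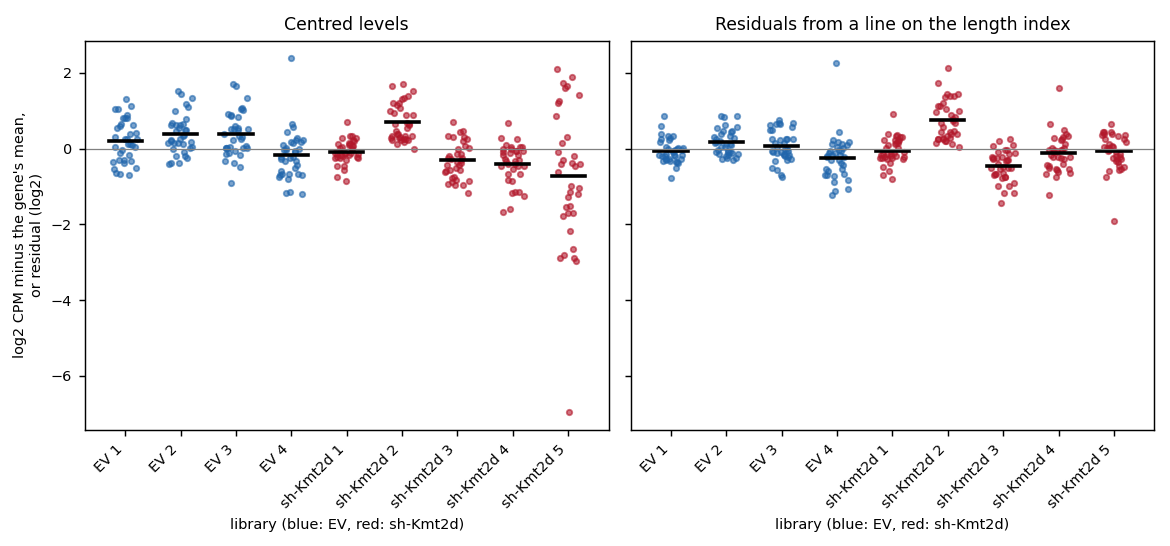
Each point is 1 of the 36 genes in 1 library, as log2 CPM minus the gene's mean over the 9 libraries (left) or as the residual from a straight line on the length index (right), and black bars are means. On the right the mean of sh-Kmt2d 2 is 0.75 and that of sh-Kmt2d 3 is -0.45; the lowest point on the left is Oas3 in sh-Kmt2d 5, with 0 counts.

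In sh-Kmt2d 2 all 36 members were above their own mean over the 9 libraries, and 15 had their highest value there, a place where 3.6% of all tested genes had theirs. After the line on the index, 36 of 36 residuals were above 0 in sh-Kmt2d 2, against 54.8% of genes, and 26 members had their highest residual there, against 10.8% of genes. In sh-Kmt2d 3 only 4 of 36 residuals were above 0, against 49.6% of genes. The nearest library to sh-Kmt2d 2 in the index was sh-Kmt2d 1, of the same group and the same title number 103. All 36 members were higher in sh-Kmt2d 2 than in sh-Kmt2d 1, with a median ratio of 1.46, and 13 were at least 2-fold higher. Of all tested genes 50.1% were higher and 2.14% at least 2-fold higher. Against sh-Kmt2d 3, also of title number 103 but further away in the index, 31 of 36 were higher in sh-Kmt2d 2. The median ratio was 1.88 and the lowest 0.80, and 17 members were at least 2-fold higher. For all tested genes the shares were 50.5% higher and 6.01% at least 2-fold higher. In the ubiquitin, ISG15 and ADP-ribose system 3 of the 7 members were higher. Both pairs share sh-Kmt2d 2. The first pair was picked after the values were seen, and with 1 library on each side the difference compares those libraries only.

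The difference between these libraries was widest in the RNA-binding effectors and narrowest in the ubiquitin, ISG15 and ADP-ribose system. Ifit1 was at 1.69 CPM in sh-Kmt2d 1 and 5.29 CPM in sh-Kmt2d 2, Ifit3 at 5.10 and 13.5 CPM, and Oasl2 at 10.5 and 24.8 CPM. Rtp4, a chaperone of receptors that interferon induces, was at 5.74 and 19.3 CPM, and Usp18 at 7.27 and 17.2 CPM. Parp9, by contrast, was at 93.4 and 97.4 CPM, and Trim25 at 85.9 and 92.0 CPM. The median log2 difference was 1.24 over the 9 RNA-binding effectors, 0.79 over the 4 GTPases, 0.66 over the 10 other effectors and 0.13 over the 7 genes of the ubiquitin, ISG15 and ADP-ribose system. Among 31 tested interferon-stimulated genes outside the 36, 28 were higher in sh-Kmt2d 2, with a median of 0.51, and among 17 tested targets of interferon-gamma 14 were, with a median of 0.19. Markers of other cells differed between the same libraries. The NK cell markers summed to 6.41 CPM in sh-Kmt2d 1 and 20.1 CPM in sh-Kmt2d 2, the highest of all 9 libraries, with 4 of 4 tested markers higher. Neutrophil markers summed to 2.93 and 23.8 CPM, macrophage markers to 156.0 and 229.6 CPM, and plasmacytoid dendritic cell markers to 53.5 and 46.9 CPM. Of the last, 3 of 6 were higher in sh-Kmt2d 2, among them Ccr9 at 1.05 and 2.10 CPM, and Pacsin1, at 36.7 CPM in sh-Kmt2d 2 and higher in sh-Kmt2d 1, made up most of both sums. The part of these cells in the difference was not tested. Over all libraries the macrophage sum was highest in EV 1, at 671.2 CPM against 156.0 to 314.4 CPM elsewhere.

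**Figure D5:**
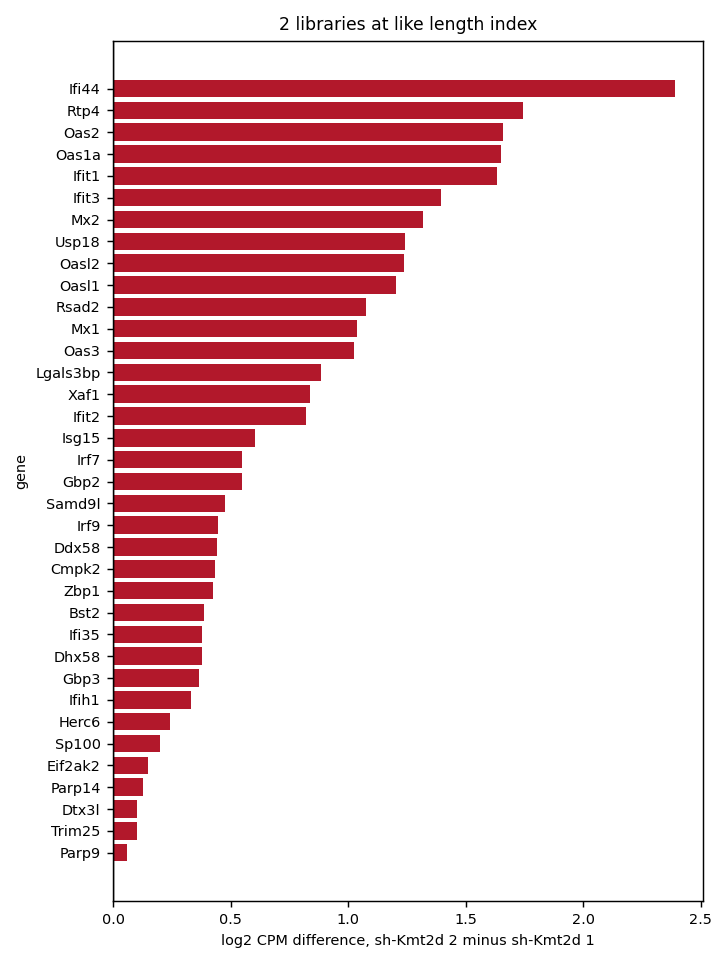
Bars give log2 CPM in sh-Kmt2d 2 minus log2 CPM in sh-Kmt2d 1 for each of the 36 genes, libraries whose length index was 0.09 and 0.32. All 36 bars are above 0, from 0.06 (Parp9) to 2.39 (Ifi44, at most 1.62 CPM).

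The members varied together across libraries. The median Pearson correlation of log2 CPM over the 9 libraries was 0.39 for the 630 pairs of members, with 68.3% of pairs above 0, beside 0.02 and 50.4% for all pairs of tested genes. With group means taken out it was 0.38, and with the line on the index taken out it was 0.46 with 82.2% of pairs above 0 (all genes 0.00). Without sh-Kmt2d 2 the median was 0.30, and 0.19 after the line on the index, against 0.46 with it. Without sh-Kmt2d 5 the same medians were 0.49 and 0.64. These are descriptions over 9 points that share library, depth and the gradient of the index.

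Some pairs of members, picked after their values were seen, ran closely together. Oas2 and Mx1 had r = 0.99 before and after the line on the index, Ifit2 and Oas3 0.99 and 0.96, and Bst2 and Ifi35 0.99 and 0.91. Other pairs were joined only once the index was taken out. Oas1a and Oas2 had r = 0.11 before and 0.97 after, and Oas2 and Rtp4 0.16 and 0.97. Dtx3l and Bst2 stood opposed in both, at -0.95 and -0.72. After the line, the median correlation with the other members was highest for Oasl2 (0.67), Ifit3 and Oas2, and near 0 for Parp9 (0.00) and Rsad2 (-0.02). Members with a response element core in the promoter window had a median of 0.43 on that measure (12 genes) and those with a window and no match 0.51 (15 genes).

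The other interferon pathway genes, 89 with a row and 79 tested, also had no call by edgeR (adjusted p from 0.167 to 0.975). Of 10 ligands listed 8 were matched to a row, Ifna1 and Ifna5 not. Of these 8, Ifnb1, Ifna2, Ifna4, Ifne, Ifnl2 and Ifnl3 had 0 counts in all 9 libraries, which allows up to 0.946 CPM in the shallowest of them (3 counts, counting error only). Ifnk reached 0.63 CPM and Ifng 0.57 CPM at most. Unadjusted, 9 of the 79 were higher and 6 lower at a p under 0.05 by edgeR, beside the 17.3% and 11.1% of all tested genes. DESeq2 called 1 higher and 2 lower by adjusted p, beside 1.55% and 2.95% of genes. Of the 79, 3 had all sh-Kmt2d libraries above all EV libraries and 6 had all of them below, beside 5.72% and 5.12% of genes. The median log2 fold change of the 79 was -0.13.

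Among the receptors, Ifnlr1, the ligand-binding chain for type III interferon, was at 30.1, 15.3, 23.9 and 21.5 CPM in EV and at 8.99, 11.7, 12.8, 5.92 and 4.41 CPM in sh-Kmt2d. All sh-Kmt2d libraries were below all EV libraries (log2 fold change -1.35 ± 0.34, SE; edgeR adjusted p = 0.167; DESeq2 adjusted p = 0.0208), and the value was -0.71 once the index entered the model. Ifnar1, a chain of the type I receptor, averaged 92.1 ± 28.3 CPM over EV (SD, n = 4), against 56.0 ± 16.4 CPM over sh-Kmt2d (SD, n = 5). Ifngr2, of the interferon-gamma receptor, averaged 52.5 ± 13.5 CPM over EV (SD, n = 4), against 59.8 ± 19.8 CPM over sh-Kmt2d (SD, n = 5), a direction that turned with total counts, without title number 110 and with the index in the model. The kinases Jak2 and Tyk2 and the factor Stat2 had log2 fold changes of -0.64, -0.52 and -0.62, which became 0.39, 0.28 and 0.40 with the index as a term.

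Of the 15 genes for sensing and induction, Ikbke, Traf3 and Tlr3 had the smallest p, with log2 fold changes of -0.83 ± 0.28, -1.05 ± 0.38 and -1.17 ± 0.54 (SE). With the index as a term these were -0.32, -0.17 and -0.21. Of the 5 brakes, Socs3, an inhibitor of cytokine receptors, was at 35.4, 34.0, 37.5 and 20.7 CPM in EV and at 19.7, 16.7, 16.5, 20.8 and 19.6 CPM in sh-Kmt2d. EV 4 lay level with the sh-Kmt2d libraries (log2 fold change -0.77 ± 0.22, SE; edgeR adjusted p = 0.167; DESeq2 adjusted p = 0.0299). Socs1, the brake on Jak kinases, was at 9.20, 10.4, 6.76 and 11.4 CPM in EV and at 14.8, 15.1, 15.3, 20.5 and 88.9 CPM in sh-Kmt2d. All sh-Kmt2d libraries were above all EV libraries, with a log2 fold change of 1.69 ± 0.60 (SE; edgeR adjusted p = 0.167), 0.69 without title number 110 and 0.06 with the index as a term. Ptpn2, a phosphatase of the pathway, had a value of 0.26 ± 0.19 (SE).

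Of 17 tested targets of interferon-gamma, the immunoproteasome subunits Psmb8 and Psmb10 and the GTPase Ifi47 had the smallest p. Their log2 fold changes were 1.52 ± 0.58, 1.59 ± 0.58 and 0.93 ± 0.36 (SE), then 0.58, 0.61 and 0.60 without title number 110, and -0.13, -0.11 and 0.10 with the index as a term. Of the 31 other interferon-stimulated genes, Ly6a (Sca-1), a surface protein, was at 210.8, 254.5, 188.2 and 259.1 CPM in EV and at 438.0, 693.9, 266.5, 617.7 and 2396 CPM in sh-Kmt2d. All sh-Kmt2d libraries were above all EV libraries, sh-Kmt2d 3 by the least (log2 fold change 1.95 ± 0.62, SE; edgeR adjusted p = 0.167; DESeq2 adjusted p = 0.0335; 0.20 with the index as a term). Helz2, a helicase that serves as a nuclear receptor coactivator, was at 1028, 897.3, 1017 and 634.0 CPM in EV and at 402.8, 407.5, 594.9, 169.8 and 93.96 CPM in sh-Kmt2d, all below EV (log2 fold change -1.42 ± 0.49, SE; -0.33 with the index as a term).

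Genes outside the 36 whose log2 CPM was closest to the mean of the members over the 9 libraries were Tlr7 (r = 0.97), an endosomal sensor of single-stranded RNA, then Nfam1, Gimap3, Icosl, Ifi206, Golm1, Fam49a, Crbn, Hrh2 and Mndal (0.91). Tlr7 was at 40.8, 64.4, 51.3 and 28.1 CPM in EV and at 33.2, 63.4, 21.8, 27.2 and 15.8 CPM in sh-Kmt2d, high in EV 2 and sh-Kmt2d 2. By residuals from the line on the index the closest were Ctss (r = 0.97), Irgm1, Cr1l, Tlr7 and Epsti1, a measure added after the data were seen. Tlr7 was the 1 gene among the first 10 of both orders.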

How the data were processed

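RNA-seq of 9 libraries was analysed from whole-number counts per gene as the authors deposited them, without normalization. Per the submitters' processing notes HTSeq 0.6.0, CASAVA 1.8.2 and build mm9 were used; aligner, annotation and strand setting: not given in the sources used here. Reads of overlapping or antisense genes therefore cannot be told apart. Alignments that were not unique (36.48% to 73.68% per library) and 4 other summary rows stayed out of library sizes. The series' text speaks of fewer samples per group than the 4 and 5 RNA libraries used here. Peak lists of the series were not used here.

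Symbols were matched for 32860 of 37583 identifiers. Counts were fitted with edgeR 4.0.16 in R 4.3.3 (filterByExpr, TMM, robust quasi-likelihood test, two-sided, Benjamini-Hochberg over 13349 genes, threshold 0.05). Log2 CPM used a prior count of 0.5. Each SE was approximated as the log2 fold change over the root of F. DESeq2 1.42.0, limma 3.58.1 (first title number as a random block), other scalings and filters, the length index as a term and leaving out libraries were alternatives. Scripts were tested on simulated data. No 2 libraries agreed within sampling noise.

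The 36 members, the lists and the index genes were chosen with earlier results of these data known. Values per library are given for the 3 members of smallest p in each role, and every member whose groups do not overlap. For the other pathway genes up to 3 of smallest p per role are named, except 1 that is not reported here, and outside the lists the 10 genes of highest correlation with the members' mean (at least 5 CPM). Members named for sh-Kmt2d 1 and 2, and in the results set out for a closer look, were chosen after their values were seen. Promoter windows of 27 members came from RefSeq (GRCm38.p6).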

Additional observations from a re-analysis of the deposited data

Results flagged for a closer look

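Among 72 sets of values (36 genes in each of 2 groups), 5 had a library far from the others of its group on the log2 scale, by Dixon's test at 95%. Chance gives about 1 in 20 sets. Lgals3bp, a secreted galectin-binding glycoprotein, was at 54.2 CPM in EV 1 against 24.1 to 26.1 CPM in the other EV libraries, and at 41.1 CPM in sh-Kmt2d 2 against 17.7 to 22.3 CPM in the rest of sh-Kmt2d. EV 1 also had the highest sum of macrophage markers, 671.2 CPM. The part of such cells in the Lgals3bp value was not tested. The other 3 values were in sh-Kmt2d 5, the shallowest library. Oas3 had 0.0 CPM there against 2.31 to 11.1 CPM in the rest of its group, and 3 counts would be 0.946 CPM in that library. Parp9 was at 33.4 CPM against 79.1 to 97.4 CPM. Ifi35 was at 222.9 CPM against 45.9 to 71.7 CPM.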

How the results depend on the processing

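Across 17 alternatives, 572 of 594 fold changes of the 35 named genes kept their direction and 22 reversed, and 3 passed the threshold with DESeq2 only (Ifnlr1, Socs3 and Ly6a). The causes were not tested. With the length index as a term the log2 fold change reversed for Irf7 (-0.29), Zbp1 (-0.31), Ddx58 (0.46), Eif2ak2 (0.22), Oas1a (-0.016), Gbp3 (0.38), Isg15 (-0.34), Trim25 (0.16), Ifi35 (-0.17), Bst2 (-0.27), Ifngr2 (-0.27), Tyk2 (0.28), Jak2 (0.39), Stat2 (0.40), Psmb10 (-0.11) and Psmb8 (-0.13). With total counts it reversed for Irf9 (-0.001) and Ifngr2 (-0.091), and without title number 110 for Gbp3 (0.041) and Ifngr2 (-0.042). Total counts moved the median of all genes to -0.20 and DESeq2 to -0.15, and the members' median to -0.37 and -0.23. That median was 0.17 with the index as a term, 0.00 without title number 110, and -0.54 (without sh-Kmt2d 2) to -0.07 (without EV 1) when 1 library was left out, with -0.10 without EV 2, -0.11 without sh-Kmt2d 3 and -0.13 without sh-Kmt2d 5.

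No alternative called a member by adjusted p, and DESeq2 called 3 of the other pathway genes. Members higher at an unadjusted p under 0.05 numbered 0 with total counts and with the random block, and 1 with the 5 CPM filter, with the index and without title number 110. They numbered 0 (without any 1 EV library) to 5 (without sh-Kmt2d 3) when 1 library was left out. Members lower numbered 1 with the index and with the block, and 2 to 6 (without sh-Kmt2d 2; 5 without sh-Kmt2d 3). Pathway genes higher numbered 3 with the index, 1 with the block and 2 (without EV 3) to 13, with 3 without EV 1 and 5 without EV 2. Pathway genes lower numbered 10 with the 5 CPM filter, 11 without title number 110, 11 with DESeq2, and 5 to 15 (without sh-Kmt2d 5; 14 without sh-Kmt2d 2). The median pair correlation of 0.388 was 0.457 after the line on the index and 0.492 without title number 110. It ran from 0.299 (without sh-Kmt2d 2) to 0.485 (without sh-Kmt2d 5), and after the line from 0.189 to 0.638 (the same libraries). The level difference was -0.60 with total counts and -0.19 by the median. The line for levels and leaving out libraries for levels and correlations were chosen after seeing the data. The titles' second numbers (1, 2 and 5 occur in both groups, 3 in sh-Kmt2d 5 alone) have no stated meaning, and deviations of same-numbered libraries correlated from -0.304 to 0.394, so they share only a number. With them as a replicate block in edgeR, chosen after seeing the data and leaving sh-Kmt2d 5 no weight, no member was called, 0 members were higher, 3 lower and 14 pathway genes lower by unadjusted p, and Oas1a (-0.037) and Ifngr2 (-0.18) reversed. Depth limits Oas3, Ifit1 and Ifi44 most, then Ifit2 and Rsad2, with 3 counts each in sh-Kmt2d 5.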
